A study of Mus musculus with 14 samples.

Results

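The 10 genes described here belong to the Wnt signalling pathway and were chosen by name: the ligand genes Wnt5a, Wnt11, Wnt9b and Wnt3, the R-spondin gene Rspo3, the secreted inhibitor genes Dkk1, Sfrp1 and Sfrp2, the nuclear factor gene Lef1, and Axin2, a target gene whose product damps the pathway. Wnt1 was left out, because the Wnt1::Cre transgene carries its regulatory sequence. Each gene was followed through the restriction fragment that holds its transcription start site (TSS) and that was captured as a bait. The 10 genes had 11 such bait fragments of the 22171 baits in the series, since Axin2 start sites lie on 2 of them. Together these baits took part in 890 of the 1344043 fragment pairs listed in any library.

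Promoter capture Hi-C (PCHi-C) crosslinks chromatin, cuts it with HindIII, ligates neighbouring ends and enriches the ligation products that include a promoter. It was run on 14 libraries of mouse cranial neural crest-derived cells (CNCCs), 2 for each of 7 conditions, to compare promoter contacts between positions of the face, between stages of one arch and after loss of Hoxa2. Of these, 6 conditions came from Wnt1::Cre;ROSA-RFP embryos, in which the Wnt1 promoter drives Cre in crest progenitors and the sorted cells are RFP positive: at E10.5 the second arch (PA2), the mandibular (Md) and maxillary (Mx) parts of the first arch and the frontonasal process (FNP), and the pinna, the outer ear that forms largely from PA2, at E12.5 and E14.5. The remaining condition was PA2 at E10.5 from Hoxa2EGFP/EGFP embryos, a knockout allele whose inserted EGFP was used to sort the cells, called Hoxa2 knockout below.

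Embryos of a mixed C57Bl/6J and CD1 background and of both sexes were pooled for each library. The knockout cells were thus sorted on another reporter than all the other cells, so genotype and sorting scheme cannot be told apart. The files hold contacts and no expression, so the identity of the sorted cells was not checked against marker genes. Each file lists fragment pairs with a CHiCAGO score of 5 or more. The score rises as a pair exceeds the contact frequency modelled for its distance within that library. A pair that is not listed scored below 5 and is written as 0 here, so any difference against 0 is an upper limit to the true difference. Same-chromosome pairs per library numbered 113670 and 120854 in the knockout, 140559 and 145035 in PA2, 139707 and 161941 in FNP, 151455 and 157277 in Mx, 173477 and 176770 in Md, 134063 and 186248 in E12.5 pinna, and 145549 and 182088 in E14.5 pinna. The read counts behind the scores are not part of the files, so the depth is unknown.

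Wnt ligands bind Frizzled receptors and either stabilise β-catenin, which acts with Lef1 and other TCF factors on target genes such as Axin2, or act through branches that do not need β-catenin, the main route for Wnt5a and Wnt11. R-spondins such as Rspo3 raise the number of receptors on the surface, Dkk1 blocks the Lrp co-receptors, and secreted Frizzled-related proteins such as Sfrp1 and Sfrp2 bind Wnt ligands outside the cell. In the face, Wnt9b and Wnt3 are ligands of the surface ectoderm known for their part in lip and palate fusion, and Wnt5a is expressed in the mesenchyme, where it supports outgrowth of the processes.

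Every member bait except that of Sfrp1 had at least 1 contact listed in all 14 libraries. Of the 890 pairs, 663 joined fragments of 1 chromosome, 288 were listed in at least 4 libraries and 36 in all 14, whereas 463 were listed in a single library. The 227 pairs between chromosomes were mostly from Md replicate 1 and E12.5 pinna replicate 2, the 2 libraries whose lists are named as merged, which held 207 of them, and none was listed in 4 libraries. The 288 recurrent pairs had a median distance of 317 kb from the start site, with the nearest at 16.8 kb and the farthest at 1779 kb, and 280 lay beyond 100 kb. Of their distal fragments, 208 overlapped a gene, 80 were intergenic and 37 held the start site of another gene. No pair joined the baits of 2 of the 10 genes.

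**Figure D1:**
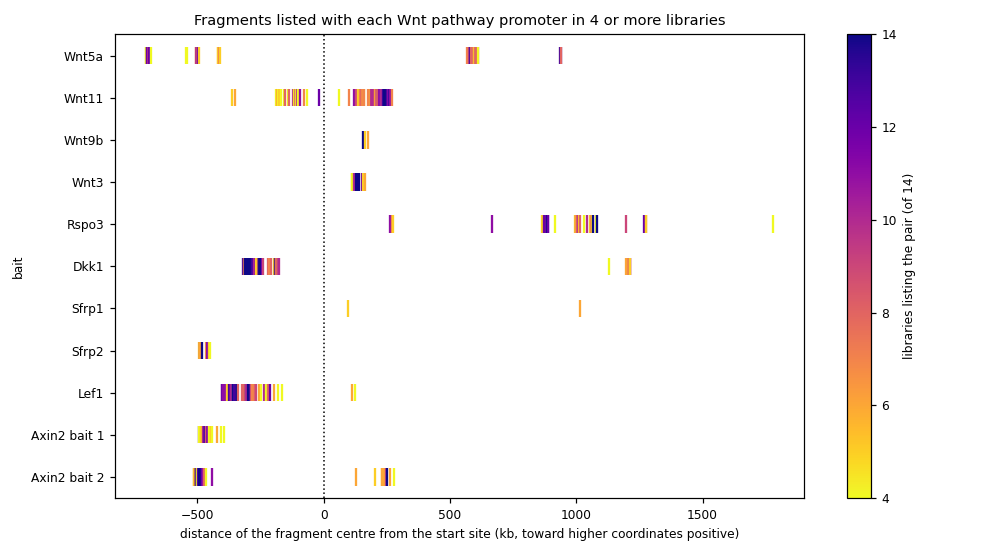
Distance from the start site, in kb on the x axis, of the 288 fragments listed with the 11 baits (y axis) in 4 or more libraries, coloured by the number of libraries out of 14. The contacts form narrow blocks, on one side only for Wnt9b, Wnt3, Rspo3, Sfrp1, Sfrp2 and the first Axin2 bait, and on both sides for Wnt5a, Wnt11, Dkk1, Lef1 and the second Axin2 bait.

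The number of fragments listed within 2 Mb of a bait gave a level for each promoter. Its mean over the 14 libraries ranged from 2.86 for Wnt9b to 43.1 for Wnt11, with a median of 21.4 over the 11 member baits and of 3.5 over all 22171 baits. The order from the highest was Wnt11 (43.1), Dkk1 (32.1), Lef1 (28.9), Wnt5a and Rspo3 (27.0 each), the second Axin2 bait (21.4), the first Axin2 bait (14.3), Sfrp2 (9.0), Wnt3 (8.36), Sfrp1 (3.21) and Wnt9b (2.86). Neighbours in this order differed by less than the larger of their SDs, except that Wnt3, with an SD of 1.78, lay above Sfrp1, with an SD of 1.76 (n = 14). The SD between libraries was 5.56 for Dkk1, 8.73 for Lef1, 7.67 for Wnt5a and 5.07 for Rspo3. A bait fragment with more captured reads can list more fragments, so these levels compare conditions better than genes.

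**Figure D2:**
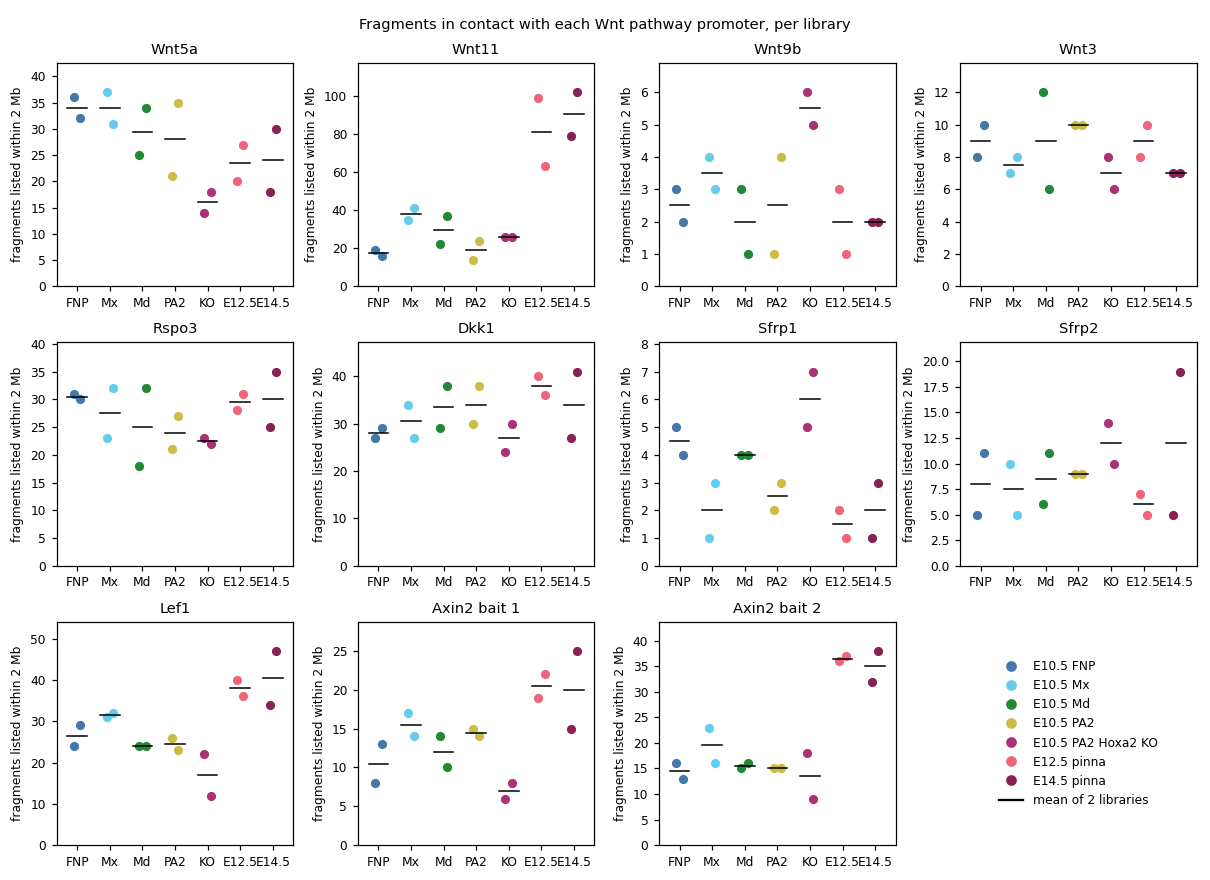
Number of fragments listed within 2 Mb of each bait (y axis, linear, from 0) in the 14 libraries (points) by condition (x axis; KO, Hoxa2 knockout; E12.5 and E14.5, pinna), with black bars at the mean of 2 libraries. The 4 pinna libraries of Wnt11, at 63 to 102, and of the second Axin2 bait, at 32 to 38, lie above all 10 E10.5 libraries.

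Wnt11 had the widest change. Its bait, chr7:98834699-98840472 (mm10), holds 4 of the 5 annotated start sites of the gene (ENSMUSG00000015957.12). It was listed with 19 and 16 fragments in FNP, 35 and 41 in Mx, 22 and 37 in Md, 14 and 24 in PA2, 26 and 26 in the Hoxa2 knockout, 99 and 63 in E12.5 pinna, and 79 and 102 in E14.5 pinna. The pinna libraries, at 85.8 ± 18.3 (SD, n = 4, both stages), did not overlap the E10.5 libraries, at 26.0 ± 9.07 (SD, n = 10, all E10.5 conditions). The share of all baits with such a gap was not counted, here or for Lef1 and Axin2 below. Corrected for the number of same-chromosome pairs in each library, the count was higher in pinna than in PA2 by 1.97 on the log2 scale (SE 0.29, limma with Benjamini-Hochberg adjustment over 21457 baits, adjusted p = 0.000909), against a median of -0.17 over all baits tested. The adjusted p was 0.064 when PA2 replicate 1, the library with 14 fragments, was left out, with a difference of 1.62, and 0.0607 when only scores of 10 or more were counted, with a difference of 1.71. Without the merged libraries the difference was 2.25 (limma adjusted p = 9.07e-05).

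The change lay on both sides of the gene. Toward lower coordinates E10.5 libraries listed 2 to 13 fragments and pinna libraries 46, 30, 36 and 50. Of the 21 recurrent fragments in the block that holds Emsy and Thap12, 0 to 12 were listed at E10.5 and 21, 19, 20 and 21 in pinna. Recurrent fragments are those listed in at least 4 libraries. Of these 21, 7 were listed in pinna alone, and only 7 were in at least 4 E10.5 libraries. The near-full pinna block is thus largely set by the limit. The totals per side carry no such limit. Toward higher coordinates the libraries listed 12 to 33 fragments at E10.5 and 53, 33, 43 and 52 in pinna. Of the 39 recurrent ones in the block that holds Uvrag, 12 to 33 were listed at E10.5 and 39, 33, 38 and 37 in pinna. Of the 39, 2 were listed in pinna alone and 26 were in at least 4 E10.5 libraries. The rest met the limit only with the pinna, so the contrast within this block is in part set by it. On that side E12.5 pinna replicate 2 was level with Mx replicate 2. The contact with the highest mean score was an intron of Uvrag 243 kb from the start site, chr7:99076896-99079521, and it was present throughout. Its scores were 8.96 and 13.9 in FNP, 11.9 and 13.96 in Mx, 11.4 and 15.8 in Md, 14.9 and 16.3 in PA2, 11.6 and 17.8 in the knockout, 19.7 and 19.7 in E12.5 pinna and 22.5 and 34.0 in E14.5 pinna. All pinna scores were above all E10.5 scores there, but the difference from PA2 was 0.40 on the asinh scale (SE 0.19) and did not pass (adjusted p = 0.427, limma over 161463 pairs).

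**Figure D3:**
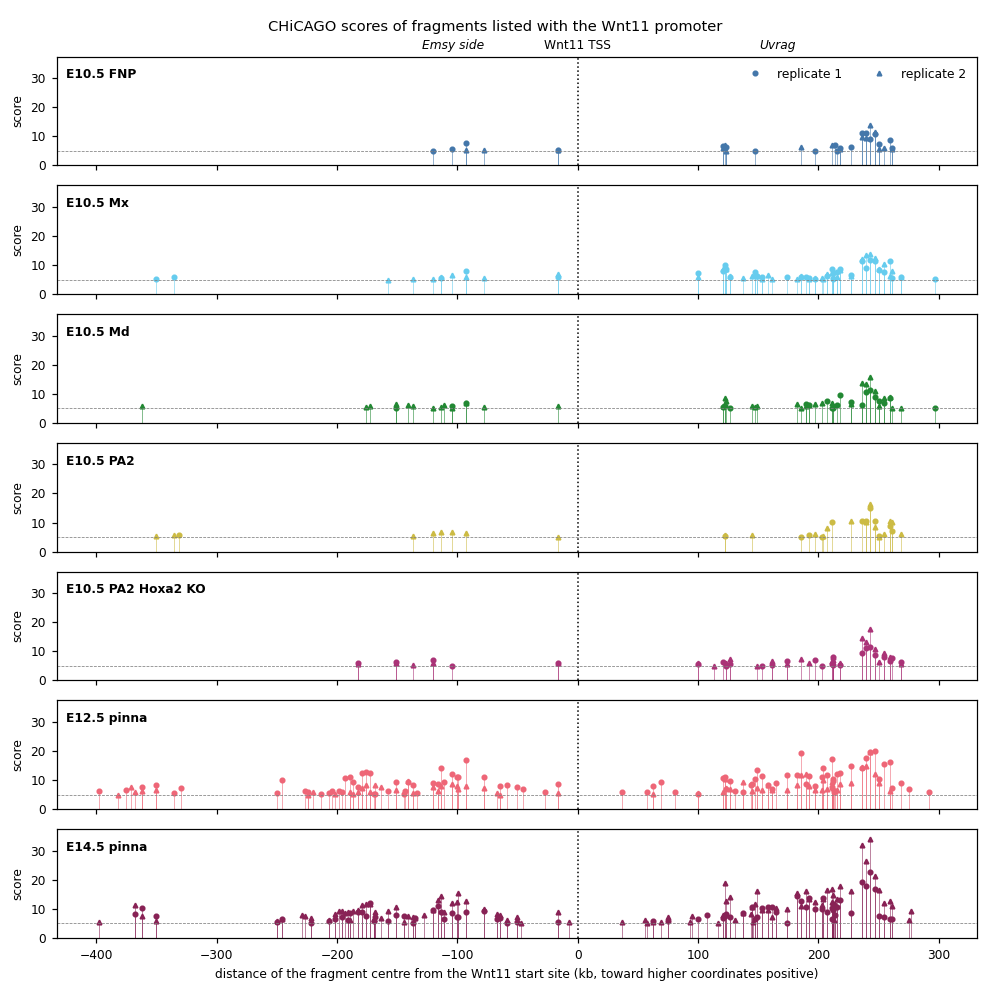
CHiCAGO score (y axis) of each fragment listed with the Wnt11 promoter against its distance from the start site in kb (x axis), with 1 panel for each condition and circles and triangles for replicates 1 and 2. The dashed line marks the listing limit of 5. The Uvrag contacts near 243 kb stand in every panel, while the block toward Emsy fills in the pinna panels.

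Among the 62 Wnt11 pairs tested, 12 were higher in pinna than in PA2, where 0.688% of all pairs tested were, and none was lower. Of the 12, 9 were listed in all 4 pinna libraries and in none of the 10 E10.5 libraries, so they entered the test through the pinna alone and being higher there was a condition of being tested. The largest difference among these 9 was 179 kb toward lower coordinates in an Emsy exon, chr7:98653347-98658159, with scores of 12.54 and 7.22 in E12.5 pinna and 8.94 and 11.5 in E14.5 pinna and no listing at E10.5 (2.98 on the asinh scale). Emsy encodes a nuclear protein that binds BRCA2. Another 2 of the 12 were listed in the knockout libraries as well, though not in wild-type PA2: one 183 kb away scored 5.89 and 5.68 in the knockout and 5.89 to 9.52 in pinna, and one 151 kb away scored 6.18 and 5.91 in the knockout, 5.15 and 6.49 in Md and 6.61 to 10.7 in pinna. The one at 183 kb was in no other E10.5 library, so it too entered the test only with the pinna. The 12th, an intron of Uvrag at 218 kb, was listed in both FNP, both Mx, 1 Md and both knockout libraries and was missing in PA2, so its call rested on the absence from PA2.

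The Wnt11 promoter and the 2 shortest fragments listed in pinna alone, 1 on each side, are shown as examples of the contacts on either side. The promoter stretch ends before the first annotated RefSeq base of the gene. The capitals in it are ATCAAAG, which read CTTTGAT on the other strand, the letters bound by Lef1 and other TCF factors. They lie 45 bases before the first GENCODE start site on the bait, which is past the end of the stretch. In the fragments the capitals are AGCTT, the part of the HindIII site left at the fragment end. All are from GRCm38.p6, plus strand, the promoter from RefSeq.
Wnt11 promoter, chr7:98834862-98835083: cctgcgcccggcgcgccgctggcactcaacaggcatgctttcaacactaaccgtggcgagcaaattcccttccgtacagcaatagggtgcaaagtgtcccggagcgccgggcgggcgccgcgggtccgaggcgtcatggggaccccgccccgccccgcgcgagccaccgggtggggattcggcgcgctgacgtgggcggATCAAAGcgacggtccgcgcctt
Contact 99.5 kb toward lower coordinates, chr7:98735372-98735671: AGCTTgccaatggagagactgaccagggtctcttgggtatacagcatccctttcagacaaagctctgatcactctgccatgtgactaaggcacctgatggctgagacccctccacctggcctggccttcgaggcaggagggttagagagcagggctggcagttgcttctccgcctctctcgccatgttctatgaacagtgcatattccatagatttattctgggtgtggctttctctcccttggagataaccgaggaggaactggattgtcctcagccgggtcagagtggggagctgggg
Contact 211 kb toward higher coordinates, chr7:99046324-99046623: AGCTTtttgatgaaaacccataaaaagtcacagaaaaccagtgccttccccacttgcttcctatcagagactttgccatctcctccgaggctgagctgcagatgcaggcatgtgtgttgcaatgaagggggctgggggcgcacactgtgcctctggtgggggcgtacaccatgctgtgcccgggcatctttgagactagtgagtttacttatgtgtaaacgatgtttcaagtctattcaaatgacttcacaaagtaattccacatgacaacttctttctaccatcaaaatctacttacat

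The first contact fragment, intergenic and 423 bases long in all, scored 10.9 and 6.86 in E12.5 pinna and 7.07 and 15.6 in E14.5 pinna. The second, 375 bases long in an intron of Uvrag, scored 7.61, 7.64, 6.35 and 12.2 in the same order. Neither was listed in any E10.5 library. RefSeq promoter windows were at hand for 7 of the 10 genes, and on both strands CTTTGAT was found for Wnt11 alone and CTTTGAA for Dkk1 alone. Among all 32851 promoter windows of the table, each of 300 bases, 3.73% held CTTTGAT and 5.14% held CTTTGAA. Neither run of letters was in the 300 bases printed for either contact fragment, whereas 6.11% and 7.99% of equally long fragment starts on chromosome 7 held them. The promoter windows of Wnt5a, Rspo3 and Sfrp1 were not analysed here.

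For Wnt5a no contrast of the count passed, whereas single fragments differed between conditions. Its bait, chr14:28498679-28508261 (ENSMUSG00000021994.15), holds 2 of its 6 annotated start sites. It was listed with 36 and 32 fragments in FNP, 37 and 31 in Mx, 25 and 34 in Md, 21 and 35 in PA2, 14 and 18 in the knockout, 20 and 27 in E12.5 pinna and 18 and 30 in E14.5 pinna. The knockout counts were the 2 lowest except that E14.5 pinna replicate 1 was also at 18. The contacts fell in 5 blocks, 3 in introns of Erc2, a gene for a presynaptic scaffold protein, 411 to 703 kb toward lower coordinates, and 2 in Cacna2d3, a calcium channel subunit gene, 566 to 611 kb and 937 to 941 kb toward higher coordinates.

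Of the 13 recurrent fragments of the nearer Cacna2d3 block, 13 and 13 were listed in FNP, 12 and 11 in Mx, 7 and 9 in Md, 6 and 9 in PA2, 6 and 5 in the knockout, 3 and 4 in E12.5 pinna and 0 and 2 in E14.5 pinna. All pinna libraries were below all E10.5 libraries. All 13 were listed in at least 4 E10.5 libraries and 9 in E10.5 libraries alone, so the limit of 4 libraries in part sets how full the block is at E10.5. The far Cacna2d3 block, by contrast, kept 1 to 3 of its 3 fragments in every library. A fragment of the nearer block at 611 kb appeared in the 4 FNP and Mx libraries alone, with scores of 6.00, 6.22, 5.68 and 5.29. It entered the test over the 7 conditions only through those 4 libraries, so its difference between conditions was a condition of its being tested. Another, at 600 kb, was listed in all 8 wild-type E10.5 libraries, at 6.12 to 10.3, and in neither the knockout nor the pinna. It was lower in pinna than in PA2 by 2.79 on the asinh scale (SE 0.47, limma adjusted p = 0.0148) and lower in the knockout by 2.79 (SE 0.55, limma adjusted p = 0.0241). This fragment entered the test through wild-type E10.5 libraries alone, so being listed at that stage was a condition of its being tested. A fragment at 604 kb went the other way in the knockout, where it scored 7.36 and 8.34, while it was not listed in PA2 (limma adjusted p = 0.0265). It was listed in all 6 FNP, Mx and Md libraries at 5.19 to 9.66, so the call rested on the absence from PA2, and its adjusted p was 0.166 with equal numbers of pairs per library, 0.0573 and 0.0568 without either PA2 library, and 0.21 and 0.222 without either knockout library.

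**Figure D4:**
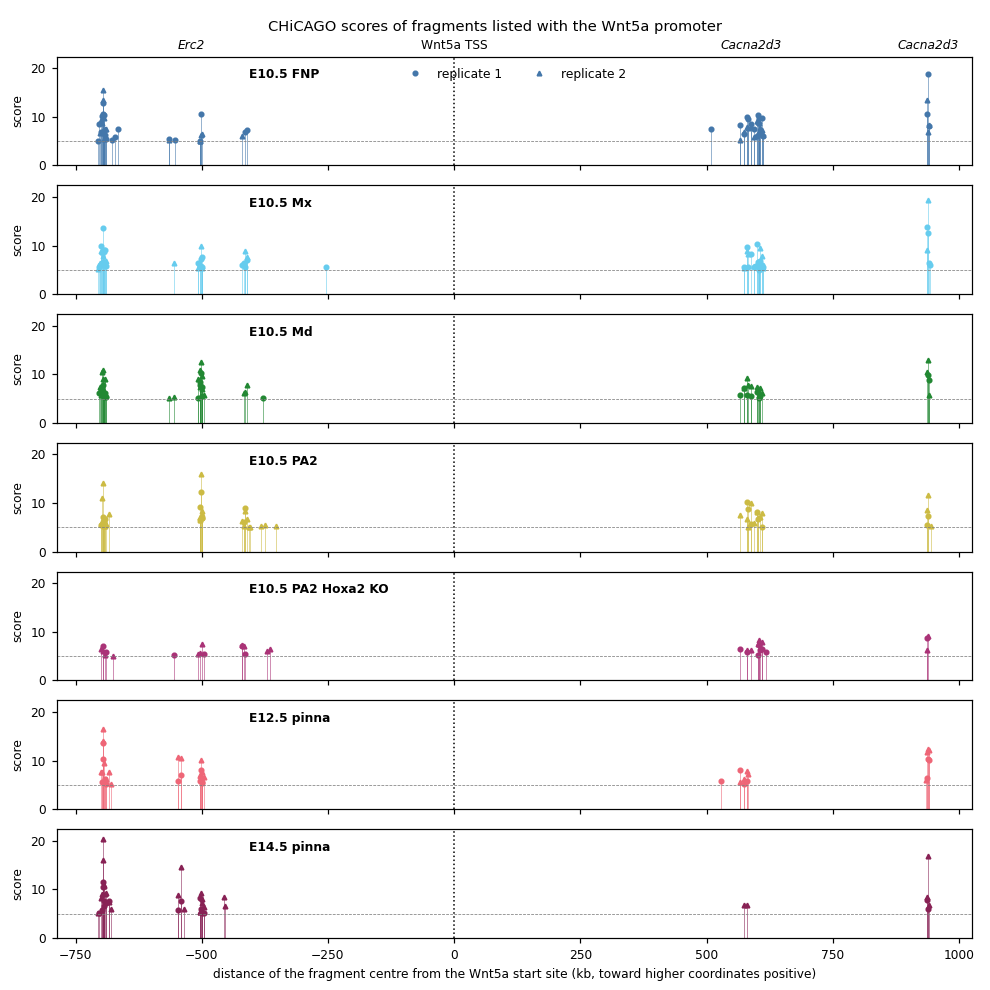
CHiCAGO score (y axis) of each fragment listed with the Wnt5a promoter against its distance from the start site in kb (x axis), with 1 panel for each condition and circles and triangles for replicates 1 and 2. The Cacna2d3 block near 600 kb holds up to 13 fragments in FNP and at most 4 in a pinna library, and a pair of Erc2 fragments near -540 kb appears in the pinna panels.

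On the Erc2 side the Wnt5a block at 411 to 420 kb was listed with 0 to 4 of its 4 fragments at E10.5 and with none in any pinna library. All 4 met the limit of 4 libraries through E10.5 alone, so the contrast within this block is largely set by that limit. A pair of neighbouring fragments of the middle block showed the opposite. At 547 and 540 kb they scored 5.87 and 10.7, and 6.99 and 10.6, in E12.5 pinna, and 5.81 and 8.76, and 7.61 and 14.53, in E14.5 pinna, and neither was listed in any E10.5 library. Both entered the test through the 4 pinna libraries alone. The farthest block, at 684 to 703 kb, was listed with 5 to 9 of its 11 fragments in all wild-type libraries and with 2 and 3 in the knockout.

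Wnt9b and Wnt3 lie side by side on chromosome 11, and their baits, chr11:103747051-103752296 and chr11:103767171-103778227, reached into the same gene, Nsf, which encodes an ATPase of membrane fusion. Wnt3 was listed with 6 to 12 fragments and Wnt9b with 1 to 6, and no contrast of either count passed. Its 3 recurrent contacts made Wnt9b the bait with the fewest after Sfrp1, and all 3 were among the 10 of Wnt3. The strongest for both was an intron of Nsf, chr11:103903042-103908312, which scored 11.1 to 24.0 with Wnt3 and 5.67 to 9.65 with Wnt9b and was listed in all 14 libraries for both. The Wnt9b count was 6 and 5 in the knockout and 1 and 4 in PA2, a difference of 1.32 (SE 0.64) that had an unadjusted p of 0.0496 and an adjusted p of 0.452 in limma.

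Rspo3 reached farthest. Its bait, chr10:29533768-29537153, holds 1 of its 2 annotated start sites and also that of Gm48159. It was listed with 31 and 30 fragments in FNP, 23 and 32 in Mx, 18 and 32 in Md, 21 and 27 in PA2, 23 and 22 in the knockout, 28 and 31 in E12.5 pinna and 25 and 35 in E14.5 pinna, so the conditions overlapped. All 35 recurrent contacts lay toward higher coordinates, with a median distance of 1003 kb, past Cenpw and as far as Hddc2 at 1779 kb. A pair of blocks held most of them, an intergenic one of 10 fragments at 864 to 916 kb and one of 16 fragments at 994 to 1082 kb around Hint3 and Trmt11. The fragment with the highest mean score, chr10:30417060-30420276 at 883 kb, scored from 9.14 to 25.5 and was listed in all 14 libraries.

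Of the secreted inhibitor genes, Dkk1 had the most even contacts. Its bait, chr19:30549612-30553319, was listed with 27 and 29 fragments in FNP, 34 and 27 in Mx, 29 and 38 in Md, 30 and 38 in PA2, 24 and 30 in the knockout, 40 and 36 in E12.5 pinna and 27 and 41 in E14.5 pinna. Of its 41 recurrent contacts, 10 were in all 14 libraries, the highest number among the 11 baits, and 34 of the 41 formed 1 block at 176 to 320 kb near Mbl2. The fragment chr19:30245891-30255766 in that block scored 10.1 to 24.4. The other 7 lay 1130 to 1214 kb away in Prkg1, a kinase gene, and no library listed fewer than 1 of the 6 in the farthest block.

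Sfrp1 and Sfrp2, close relatives in function, both had few recurrent contacts beside most of the other member baits. The mean count of Sfrp2, 9.0, was still above the median of 3.5 over all baits. Sfrp1 (bait chr8:23385734-23412452) was listed with 1 to 7 fragments and had 2 recurrent contacts, neither listed in more than 6 libraries. Its count was 5 and 7 in the knockout and 2 and 3 in PA2, a difference of 1.28 (SE 0.58) with an unadjusted p of 0.036 and an adjusted p of 0.416 in limma. Sfrp2 (bait chr3:83763477-83771352) was listed with 5 to 19 fragments, and all 9 of its recurrent contacts lay 449 to 492 kb away within Dchs2, a gene for a large cadherin. The fragment chr3:83276373-83292725 scored 6.03 to 22.5 and was listed in all 14 libraries, with the highest value in the first knockout library.

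The bait of Lef1, chr3:131103630-131114076, which also holds a start site of Gm43352, was listed with 24 and 29 fragments in FNP, 31 and 32 in Mx, 24 and 24 in Md, 26 and 23 in PA2, 22 and 12 in the knockout, 40 and 36 in E12.5 pinna and 34 and 47 in E14.5 pinna. The pinna libraries lay above all E10.5 libraries, yet the difference from PA2, 0.48 (SE 0.27), did not pass (limma adjusted p = 0.405). Of 41 recurrent contacts, 39 lay 166 to 402 kb toward lower coordinates, over Ostc and Rpl34 and the intergenic stretch next to them. The other 2 were at the far end of Lef1 itself and in Hadh. The one in a Lef1 exon at 113 kb was listed in all 4 pinna libraries at 5.67 to 6.68 and in both Mx libraries at 6.91 and 5.39, and not in PA2 (difference 2.54, SE 0.52, limma adjusted p = 0.0447). This pair met the limit of 4 libraries only with the pinna, so being listed there was a condition of its being tested.

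Axin2 was captured on 2 baits. The first, chr11:108914244-108922208, holds 4 of its 7 start sites, and the second, chr11:108932540-108945994, holds 2 internal ones and that of the antisense gene Gm11670. Both reached the same part of Cep112, a centrosomal protein gene, 393 to 513 kb toward lower coordinates, with 14 shared fragments among the 17 recurrent contacts of the first and the 28 of the second. The strongest of these with the second bait, chr11:108448354-108451185, scored 10.1 to 25.1 over the 14 libraries. The second bait alone had recurrent contacts toward higher coordinates.

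The second Axin2 bait was listed with 16 and 13 fragments in FNP, 23 and 16 in Mx, 15 and 16 in Md, 15 and 15 in PA2, 18 and 9 in the knockout, 36 and 37 in E12.5 pinna and 32 and 38 in E14.5 pinna. The groups did not overlap, with 35.8 ± 2.63 in pinna (SD, n = 4, both stages) and 15.6 ± 3.53 at E10.5 (SD, n = 10, all E10.5 conditions). The difference from PA2 was 1.03 on the log2 scale (SE 0.30) and missed the threshold (limma adjusted p = 0.0734). It passed without division by the library total (limma adjusted p = 0.0218) and with summed scores (0.0452). It also passed with equal numbers of pairs per library (limma adjusted p = 0.0470) and with the replicate number as a block (0.0410). With scores below 10 set to 0 the difference fell to 0.51 and did not pass (limma adjusted p = 0.452). Nor did the bait pass when any single library or both merged ones were left out, with differences of 0.92 to 1.14. In the Cep112 block of 18 recurrent fragments the mean score, with unlisted fragments at 0, was 3.84 to 7.05 at E10.5, 8.30 and 8.82 in E12.5 pinna and 7.19 and 9.28 in E14.5 pinna. In the block of 9 fragments 205 to 277 kb away, around E030025P04Rik, E10.5 libraries listed 1 to 4 except for the first knockout library, which listed 7. All 9 were in all 4 pinna libraries and thus met the limit of 4 libraries through the pinna, and 2 of them were in at least 4 E10.5 libraries, so the contrast within this block is largely set by that limit. The farthest of them, at 277 kb, was listed in pinna alone, with scores of 5.57, 5.81, 5.56 and 5.49, and likewise entered the test through these alone. The first bait was listed with 15 to 25 fragments in pinna and 6 to 17 at E10.5.

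Over the whole set, the conditions differed in the fragment count for 1 of the 11 baits, Wnt11 (limma moderated F over 7 conditions), where 4.5% of the 21457 baits tested passed. The number of pairs that passed the same test was 32 of 288, with 4.35% passing among all 161463 pairs. They belonged to 7 genes, with 11 at Wnt11, 9 at Wnt5a, 6 at Axin2, 2 each at Lef1 and Rspo3, and 1 each at Dkk1 and Wnt3. Of the 32, 12 were listed in the 4 pinna libraries alone, so a difference between conditions was a condition of their being tested. The same holds for the Wnt5a fragment at 611 kb, so the share of 32 in 288 is in part set by the limit of 4 libraries.

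**Figure D5:**
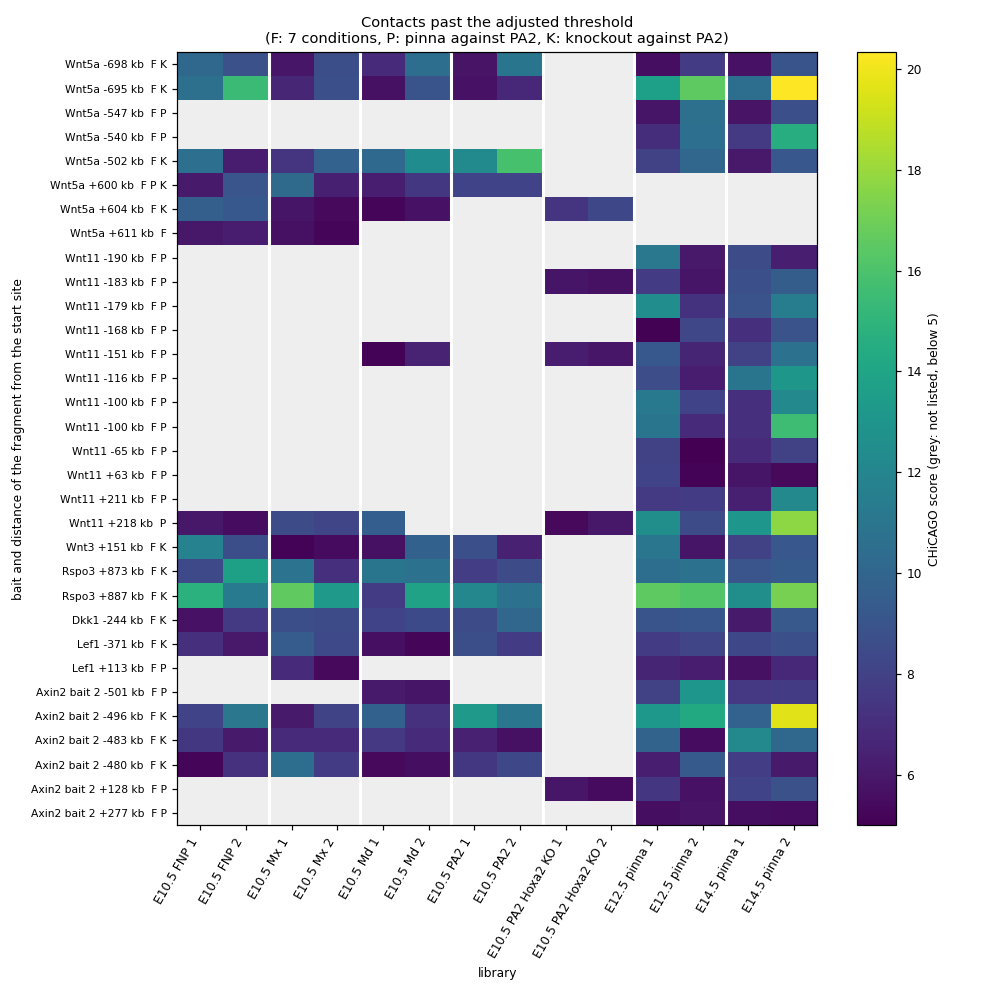
CHiCAGO score (colour, grey where not listed) in the 14 libraries (x axis) of 32 of the 33 pairs (y axis, by bait and distance from the start site) past an adjusted p of 0.05 over the 7 conditions (F), in pinna against PA2 (P) or in the knockout against PA2 (K). In all, 18 pairs are higher in pinna than in PA2, and 12 are listed in PA2 and in neither knockout library.

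Between positions at E10.5, no member count differed between PA2 and the mean of FNP, Mx and Md, at an adjusted p of 0.05 or at an unadjusted p of 0.05 (limma), where 0% of the baits passed the adjusted test and 1390 passed the unadjusted one. None of the 288 pairs passed either, against 0.227% of all pairs, with 9.72% at an unadjusted p under 0.05 beside 7.62% of all pairs. The median difference of the 11 baits was 0.02 on the log2 scale, and 0.16 over all baits.

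Between PA2 and the pinna, 1 of the 11 counts passed, where 2.08% of all baits did. Of the 288 pairs, 19 passed, where 1.55% of all pairs did. Of these, 18 were higher in pinna and 1 was lower, where 0.688% of all pairs tested were higher and 0.858% lower. They were 12 at Wnt11, 3 at the second Axin2 bait, 3 at Wnt5a and 1 at Lef1. The median difference over the 288 pairs was 0.37 on the asinh scale and -0.02 over all pairs. Of the 145 member pairs listed in all 4 pinna libraries, 12 (8.28%) were in none of the 10 E10.5 libraries, where the share over all such pairs of the series was 1.92%. A pair listed in the pinna alone entered the test through those 4 libraries, so its being higher there was a condition of its being tested. The same holds for called pairs at Wnt11 (183 kb), Lef1 (113 kb) and the second Axin2 bait (128 and 501 kb), in fewer than 4 other libraries. The split of 18 to 1 depended on the libraries kept, and higher calls did not outnumber lower ones in every omission. The calls also rested on PA2, with 2 pairs left without PA2 replicate 1 and 1 without replicate 2, and on the pinna libraries, with 3 to 8 left when 1 of these was dropped. Without both merged libraries 20 member pairs passed.

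After loss of Hoxa2, none of the 11 counts passed (limma), where 0.219% of all baits did, and 3 of the 11 had an unadjusted p under 0.05, where 11.0% of all baits had. Of the 288 pairs, 13 passed, where 2.16% of all pairs did. Of these, 12 were lower in the knockout than in PA2 and 1 was higher, where 1.8% of all pairs tested were lower and 0.362% higher. At an unadjusted p under 0.05 (limma) the member pairs were near the background, with 17.7% of them beside 16.8% of all pairs. The median difference over the 288 pairs was 0 on the asinh scale and -0.09 over all pairs. The knockout lists were the shortest in the series, and 2909 of the 3493 pairs called over the genome were lower in the knockout. A pair listed in the 2 knockout libraries alone could not meet the limit of 4 libraries, so the direction is in part set by it. Over the genome 8312 pairs were higher and 4549 lower with a limit of 2 libraries, where such a pair could enter. With pairs in at least 2 libraries, 18 member pairs passed, 12 lower and 6 higher. Higher calls were thus a larger share there, and also without the merged libraries. With the same number of top-scoring pairs taken from every library, 7 member pairs passed, and without the merged libraries 23 did. The 12 lower pairs of the main test belonged to Wnt5a with 4, Axin2 with 3, Rspo3 with 2 and Dkk1, Lef1 and Wnt3 with 1 each. Of the 12, 11 were listed in all 12 wild-type libraries, and 54 member pairs were so listed, so 20.4% of these were in neither knockout library, against 9.63% of the 19921 such pairs in the series.

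The smallest adjusted p was that of the Rspo3 contact at 887 kb, chr10:30421701-30424187. It scored 14.8 and 11.3 in FNP, 16.6 and 13.3 in Mx, 7.64 and 13.8 in Md, 12.1 and 10.8 in PA2 and 12.6 to 17.2 in pinna, and was in neither knockout library (difference -3.13, SE 0.27, limma adjusted p = 0.000281). The fragment next to it, at 885 kb, stayed listed in the knockout at 10.3 and 8.35, against 7.30 and 18.1 in PA2. The other Rspo3 contact that passed lay at 873 kb (difference -2.79, SE 0.29, limma adjusted p = 0.000647). The largest difference among the 13 was that of an Erc2 intron at 502 kb from Wnt5a, chr14:28002318-28003630, which scored 10.6 and 6.24 in FNP, 7.30 and 9.83 in Mx, 10.3 and 12.45 in Md, 12.3 and 15.9 in PA2 and 6.05 to 10.05 in pinna, and was in neither knockout library (difference -3.33, SE 0.31, limma adjusted p = 0.000433). Neither of the fragments next to it was listed in the knockout. Also at Wnt5a, the fragments at 698 and 695 kb were lost while the one between them, at 697 kb, scored 7.08 and 5.97 in the knockout and 7.08 and 14.2 in PA2. At the second Axin2 bait the Cep112 fragments at 496, 483 and 480 kb were lost, whereas the one at 492 kb scored 6.41 and 7.62 in the knockout, below the 8.2 to 21.7 of the wild-type libraries (difference -0.57, SE 0.26, limma adjusted p = 0.304), and those at 489 and 487 kb scored 18.9 and 16.2, and 17.9 and 14.9, in the knockout, within the range of the other libraries. A fragment adjoining the lost one was listed with the same bait in both knockout libraries for 9 of the 12. Of the 12 lost fragments, 6 had no pair with any bait of the series in either knockout library, where they had 1 to 3 in each wild-type library, and the part of this in the result was not tested. Whether the knockout embryos differed in strain background at these fragments was not tested either.

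Wnt3, Dkk1 and Lef1 each lost 1 contact of this kind in the knockout. At Wnt3 it was a fragment of Nsf at 151 kb with scores of 8.72 and 6.39 in PA2 (limma adjusted p = 0.00198). At Dkk1 it was a fragment at 244 kb with 8.49 and 10.1 in PA2 (limma adjusted p = 0.000647), and at Lef1 one at 371 kb with 8.71 and 7.73 (limma adjusted p = 0.000716). Wnt11, like Wnt9b, Sfrp1 and Sfrp2, had no pair that passed in the knockout. Its count there, 26 and 26, stood above the 14 and 24 of PA2 by 0.76 (SE 0.34, limma unadjusted p = 0.033, adjusted p = 0.408), where the median over all baits was 0.19. With scores below 10 set to 0 this difference turned to -0.0865.

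The rest of the pathway was read from 66 other genes fixed by role as ligands, ligand processing, receptors, R-spondin arm, inhibitors, transducers and targets. Of these, 65 had a bait, on 66 fragments, and 65 fragments were tested by their count. Over the 7 conditions 5 passed, Dvl1, Sp5, Nkd1, Wnt6 and Lgr5 (limma adjusted p from 0.00612 to 0.044), where 4.5% of all baits did. The bait of Dvl1, which relays the signal from Frizzled, also holds start sites of Mxra8 and Mxra8os, so the genes cannot be told apart. It was listed with 12 and 13 fragments in FNP, 10 and 11 in Mx, 7 and 11 in Md, 13 and 13 in PA2, 4 and 7 in the knockout, 3 and 2 in E12.5 pinna and 3 and 2 in E14.5 pinna, lower in pinna than in PA2 by 2.18 on the log2 scale (SE 0.38, limma adjusted p = 0.00312).

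Sfrp4, a relative of Sfrp1 and Sfrp2, was listed with 5 and 3 fragments in FNP, 4 and 5 in Mx, 2 and 2 in Md, none in either PA2 library, 3 and 3 in the knockout, 1 and 5 in E12.5 pinna and 7 and 5 in E14.5 pinna, and was higher in pinna than in PA2 (difference 2.12, SE 0.50, limma adjusted p = 0.0257). The pinna counts overlapped those of FNP, Mx and Md, so this call rested on the absence from PA2. Nkd1, a feedback inhibitor and target like Axin2, was listed with 12 and 14 fragments in E12.5 pinna, 14 and 36 in E14.5 pinna and 2 and 5 in PA2, and its difference of 1.93 (SE 0.58) missed the threshold (limma adjusted p = 0.0894). None of the 65 passed between PA2 and the other E10.5 processes, nor in the knockout (limma, 7 and 15 at an unadjusted p under 0.05, or 10.8% and 23.1%, where 6.48% and 11.0% of all baits were). The median difference of the 65 between pinna and PA2 was -0.07, beside -0.17 for all baits.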

How the data were processed

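PCHi-C was performed on 14 libraries of sorted CNCCs, 2 for each of 7 conditions, biologically independent per the methods of the study. The authors mapped reads to GRCm38/mm10 with HiCUP, scored pairs of HindIII fragments with CHiCAGO, and deposited for each library the pairs with a CHiCAGO score of 5 or more. The lists of Md replicate 1 and E12.5 pinna replicate 2 are named as merged, and what was merged is not given in the sources used here.

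Fragments were matched to start sites of GENCODE vM21, and unlisted pairs were set to 0. Pairs listed in at least 4 of 14 libraries (asinh of the score, 161463 pairs) and listed fragments per bait (log2 of 1 plus the number within 2 Mb, divided by the same-chromosome total of the library, 21457 baits) were fitted with limma 3.58.1 as 7 condition means with Benjamini-Hochberg adjustment at 0.05. The fit was tested on simulated data. All 44 bait and contact fragments checked ended at HindIII sites in GRCm38.p6.

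The 10 genes, the 66 other pathway genes and the tests were chosen with earlier results of these data known. The rule named, for each bait, the 3 pairs over 20 kb with the highest mean score, the pairs past the threshold (up to 10 per test by p) and, of the other pathway genes, the 3 smallest p per test. Blocks, contacts less than 50 kb apart, were described after their values were seen. Alternatives were a filter of 2 libraries, scores capped at 20, scores below 10 set to 0, equal numbers of pairs per library, no division, summed scores, the replicate number as a block, and the omission of the merged libraries or of each library in turn. A single contact of Wnt5a is not reported here.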

Additional observations from a re-analysis of the deposited data

Results flagged for a closer look

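Of 22 groups of baits and conditions, 2 had a library apart from the others, where chance gives about 1 in 20. Sfrp2 was listed with 19 fragments in E14.5 pinna replicate 2 and with 5 to 7 in the other pinna libraries. The second Axin2 bait was listed with 23 fragments in Mx replicate 1 and with 13 to 16 in the other FNP, Mx and Md libraries. Without Mx replicate 1 no member count passed between PA2 and the facial processes (limma, none at an unadjusted p under 0.05 either), and the pinna difference of the second Axin2 bait was 1.03 (limma adjusted p = 0.087). Without E14.5 pinna replicate 2, 1 of the 11 counts passed between pinna and PA2, as with it.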

How the results depend on the processing

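The member counts that passed were 32 over the 7 conditions, 0 between PA2 and the facial processes, 19 between pinna and PA2 and 13 in the knockout for pairs, and 1, 0, 1 and 0 for fragments per bait. With pairs in at least 2 libraries, 53, 8 and 44 pairs passed the first 3 tests. With scores below 10 set to 0, 3, 3 and 0 pairs passed over the conditions, in pinna and in the knockout, where 49 of 288 were left to test, and no bait passed in pinna. Equal numbers of pairs per library gave 7 pairs in the knockout and 2 baits in pinna. Without the merged libraries 1 pair passed between PA2 and the facial processes and 23 in the knockout. Without division by the library total, and with summed scores, 2 baits passed both over the conditions and in pinna, Wnt11 and the second Axin2 bait in the pinna contrast (for the latter adjusted p = 0.0218 and 0.0452). Omission of single libraries gave 23 to 45 pairs over the conditions, 0 to 2 for PA2, 1 to 28 in pinna and 12 to 19 in the knockout, and 1 to 2 baits over the conditions and 0 to 1 in pinna. The 1 was without PA2 replicate 2 and the 28 without either Md library. The cause was not tested.

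Replicate numbers did not pair the samples, since correlations of same-numbered deviations ran from 0.002 to 0.074 for pairs and reached 0.114 for baits. With the replicate block 31, 0, 14 and 12 pairs passed, and 2 baits passed over the conditions and 2 in pinna, with an adjusted p of 0.0410 for the second Axin2 bait. The Wnt5a fragment at 604 kb had 0.0501 in the knockout. The knockout difference of Wnt11 fragments turned from 0.76 to -0.0865 with scores below 10 set to 0. Over all features, 2496 pairs passed in pinna and 3493 in the knockout, against 10546 and 12861 with pairs in at least 2 libraries, 692 and 865 with scores below 10 set to 0, and 4150 and 6978 without the merged libraries. Without division, 237 baits were higher and 222 lower in pinna, instead of 139 and 307. Only 2 libraries per condition and a listing limit of 5 bound what could be seen.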
